A study of Mus musculus with 6 samples.

Results

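The unfolded protein response genes described here are 35 named genes of the endoplasmic reticulum (ER), grouped by role into stress sensors, the transcription factors and feedback genes downstream of them, chaperones, lectin chaperones, disulfide enzymes, ER degradation genes and a translocon subunit. They were chosen by name, with earlier results of these data known, and their 35 names match 36 of the 31883 rows of the expression table because Ddit3 is carried by a pair of gene IDs. The tested cultures were bone marrow-derived macrophages of C57Bl/6 mice labelled global CD22 knockout (3 libraries), and the comparison cultures were macrophages of C57Bl/6 wild type mice (3 libraries). All 6 cultures were grown from femur marrow with medium conditioned by L929 fibroblasts, a source of macrophage growth factor, and then received IL-4 at 20 ng/mL for 48 hours, while 25% of the medium remained L929-conditioned. IL-4 drives macrophages towards an alternatively activated state. CD22 is a sialic acid-binding receptor that dampens signalling in B cells. No culture without IL-4 is among the libraries. The knockout is described as global, so it was not limited to macrophages, and no label ties a library to an animal of its own, so the p-values rest on a spread between libraries that may be technical.

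The unfolded protein response matches the folding capacity of the ER to the load of secreted and membrane proteins. BiP, the product of Hspa5, binds unfolded proteins and holds the sensors IRE1, PERK and ATF6 inactive until unfolded proteins draw it away. IRE1 then splices the Xbp1 message, PERK slows translation through eIF2 alpha and so favours ATF4, and ATF6 is cut in the Golgi to free a transcription factor. XBP1 and ATF6 raise chaperone and degradation genes, and ATF4 raises Ddit3, Trib3 and Ppp1r15a. Splicing of Xbp1, phosphorylation of PERK and cleavage of ATF6 leave no mark in a gene-level RNA value, so none of them was measured here.

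The values are FPKM, fragments scaled to transcript length and to the mapped fragments of the library, so levels of different genes can be set side by side. FPKM summed to 314441 to 348332 per library, and read depth is unknown. Cd22 itself was at 8.85, 8.21 and 9.53 FPKM in the libraries labelled CD22 knockout and at 8.95, 9.36 and 10.6 FPKM in the wild type libraries (log2 difference -0.11, SE 0.0873, limma, adjusted p = 0.695), so its level does not separate the groups, and the libraries labelled CD22 knockout are named by that label throughout. A value for the gene as a unit can count exons that a deletion leaves in place. Macrophage markers summed to 7437 to 9656 FPKM in the CD22 knockout-labelled libraries and to 7942 to 10352 FPKM in the wild type libraries, with 11 of 12 markers passing the filter on low values. Markers of plasma and B cells, which are rich in ER chaperones, summed to 47.0 to 58.7 FPKM in the CD22 knockout-labelled libraries and to 54.9 to 64.7 FPKM in wild type, and 6 of 13 passed the filter. Most of that sum was Sdc1, at 32.0 ± 5.05 FPKM in the CD22 knockout-labelled libraries and 37.4 ± 2.42 FPKM in wild type (SD, n = 3 each). Adipocyte markers summed to 8.79 to 20.2 FPKM in the CD22 knockout-labelled libraries and to 22.8 to 60.7 FPKM in wild type, highest in wild type library 1. Skeletal muscle markers reached 5.46 FPKM in wild type library 1 and epididymis markers 7.45 FPKM in wild type library 2, and their part in the results was not tested beyond leaving those libraries out. Transcripts encoded by mitochondrial DNA made up 17.2%, 20.4% and 15.6% of summed FPKM in the CD22 knockout-labelled libraries and 11.8%, 11.7% and 16.5% in wild type.

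ER folding genes were among the most abundant transcripts of these macrophages. Of the 34 genes that passed the filter of at least 1 FPKM in at least 3 libraries, 9 (26.5%) averaged at least 100 FPKM over the 6 libraries, against 3.58% of the 10777 genes tested, and their median level was 37.4 FPKM against 6.62 FPKM for all genes tested. Calr, the lectin chaperone calreticulin, averaged 466 FPKM and ranked 73 among the genes tested. Hspa5 (458 FPKM) ranked 76, and Hsp90b1 (367 FPKM), the ER member of the HSP90 family also called GRP94, ranked 105. P4hb (348 FPKM), Pdia3 (292 FPKM), Pdia4 (241 FPKM) and Pdia6 (119 FPKM), all protein disulfide isomerases, and Canx (154 FPKM), the membrane-bound lectin chaperone calnexin, were the next folding genes, and Atf4 (123 FPKM) was the transcription factor of the group at this level. The lowest levels were those of PERK, IRE1 and a pair of derlins, while Derl1 averaged 43.8 FPKM. Eif2ak3, which encodes PERK, averaged 6.66 FPKM, Derl2 averaged 7.41 FPKM and Ern1, which encodes IRE1, averaged 9.53 FPKM. Derl3, a derlin of the ER degradation channel known from secretory cells, did not pass the filter. It was at 0.334, 0.244 and 0.416 FPKM in the CD22 knockout-labelled libraries and at 0.275, 0.348 and 0.530 FPKM in wild type, so the groups overlapped near the bottom of the scale. The other Ddit3 ID was listed at 0 in every library.

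**Figure D1:**
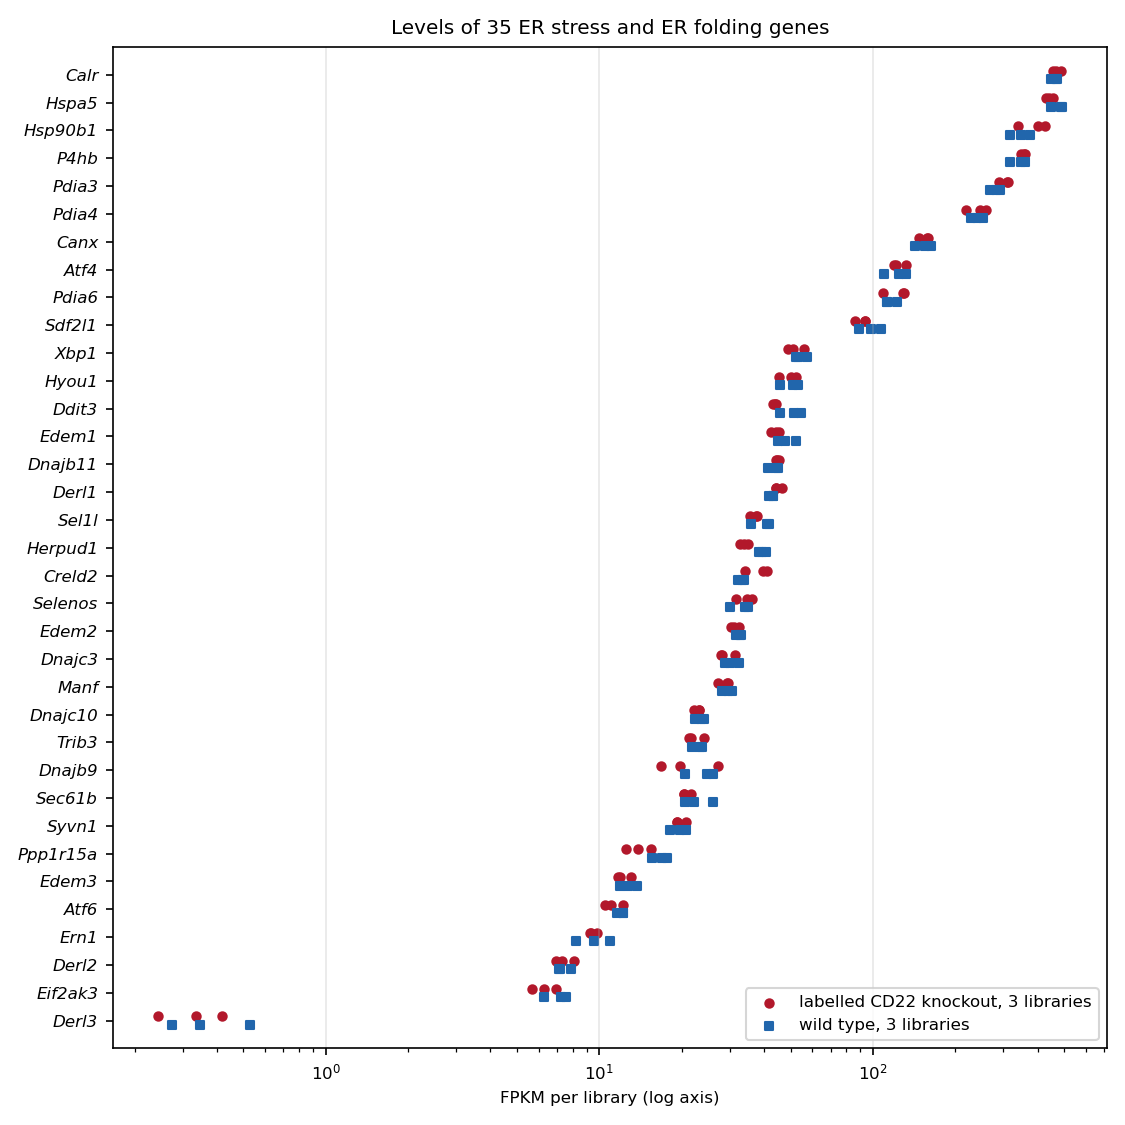
FPKM of the 35 genes in each of 6 libraries on a log axis, with CD22 knockout-labelled libraries as circles above the wild type libraries as squares, ordered by mean level. Levels span from Derl3, under 1 FPKM, to Calr at 466 FPKM on average, and the groups lie close together for nearly every gene.

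Several of these genes carry the same short element next to their start site. The ER stress response element (ERSE) has the letters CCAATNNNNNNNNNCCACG, and its CCAAT end is known as the binding site of NF-Y and its CCACG end as that of ATF6 or XBP1. Promoters were taken from RefSeq (GRCm38.p6, 250 bases before to 50 after the start site) and matched for 31 of the 35 genes. The exact letters were searched on both strands. An ERSE was present in 9 of the 31 genes (29.0%) and in 39 of 32851 promoters of all genes (0.119%). The related element ERSE-II, which reads ATTGG, any base and CCACG, was present in Herpud1 and Dnajb11 (2 of 31 genes, 6.45%) and in 12 of 32851 promoters (0.0365%), in genes without an ERSE, so that no ERSE overlapped an ERSE-II. Neither the exact UPRE letters TGACGTGG nor the exact CARE letters TGATGNAAT were in the windows of the 31 genes. CARE is the element known for ATF4. Of all promoters, 0.676% and 0.965% hold these letters. Forms that differ in the last letter were not counted. The Hspa5 window printed below holds tgacgtga, which differs from the UPRE letters in that place alone. The Herpud1 window holds gttgcatca, which on the other strand differs from the CARE letters in that place alone. These counts therefore do not show that such elements are absent. The ERSE letters occur in the promoters of 37 genes in all, of which Ero1b, an ER oxidase gene that the table carries as Ero1lb, is on the lists of other ER genes used below, and 27 are neither there nor among the 35. The elements of the 9 genes with an ERSE and the 2 with an ERSE-II are printed here, and most of the 31 genes carry neither. Each is read from CCAAT to CCACG (or ATTGG to CCACG) with those ends in capitals.
Hspa5: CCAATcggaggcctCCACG
Hsp90b1, far site: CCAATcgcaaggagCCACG
Hsp90b1, near site: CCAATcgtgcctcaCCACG
Calr: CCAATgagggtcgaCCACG
Canx: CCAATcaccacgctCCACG
Pdia6: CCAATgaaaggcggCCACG
Dnajc3: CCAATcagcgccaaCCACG
Creld2: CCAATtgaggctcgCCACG
Derl3: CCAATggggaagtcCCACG
Syvn1: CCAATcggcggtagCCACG
Herpud1, ERSE-II: ATTGGgCCACG
Dnajb11, ERSE-II: ATTGGcCCACG

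The 10 ERSE of the 9 genes ended between 26 and 194 bases before the start site. Hspa5, Canx, Pdia6, Dnajc3 and Syvn1 carry an element that runs in the direction of the gene, Calr, Creld2 and Derl3 carry it on the opposite strand, and Hsp90b1 carries a copy in each direction. The ERSE-II of Herpud1 ended 42 bases before the start site, and that of Dnajb11 lay from 7 to 17 bases after it. The 8 tested genes with an ERSE had a median level of 137 FPKM (19.7 to 466). The 22 with a promoter window and no ERSE, which include Herpud1 and Dnajb11 with their ERSE-II, had a median of 35.1 FPKM (6.66 to 348). Between genotypes, 6 of the 8 were higher and 2 lower with a median log2 difference of 0.02. In the other group, 7 of the 22 were higher and 15 lower with a median of -0.06. Of all genes tested, 42.1% were higher and 57.9% lower, with a median of -0.02. These groups were formed by promoter letters alone, and the values describe them without a test. Calr, Canx and Pdia6, of the 8, turned from higher to lower without wild type libraries 1 and 2. In that setting 28 of all 34 genes were lower. A match describes letters and is not evidence of binding.

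**Figure D2:**
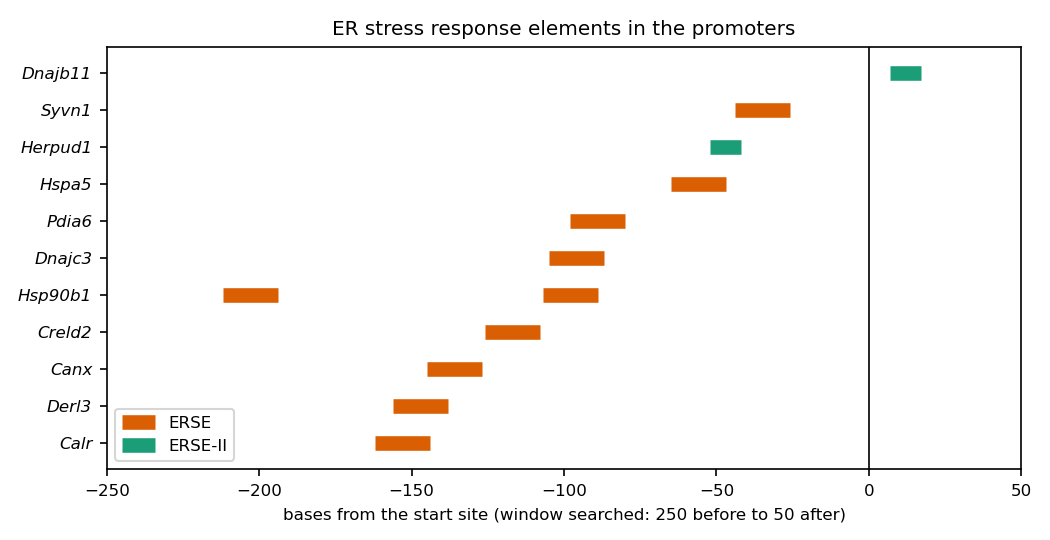
Position of each ERSE (orange) and ERSE-II (green) in the promoters of 11 genes, in bases from the start site, over the window searched. The ERSE end 26 to 194 bases before the start site, and the ERSE-II of Dnajb11 lies after it.

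The windows of 4 genes are shown for the differences described below, with the element ends in capitals. That of Hspa5, plus strand of chr2:34771840-34772139, has its element 47 bases before the start.
Hspa5: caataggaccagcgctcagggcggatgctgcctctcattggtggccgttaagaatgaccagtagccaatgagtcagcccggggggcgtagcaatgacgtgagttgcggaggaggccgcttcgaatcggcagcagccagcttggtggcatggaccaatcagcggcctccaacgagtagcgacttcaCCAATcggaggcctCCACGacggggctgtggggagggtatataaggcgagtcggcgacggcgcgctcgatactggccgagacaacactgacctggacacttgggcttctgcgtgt
That of Hsp90b1, minus strand of chr10:86705395-86705694, has a pair of elements.
Hsp90b1: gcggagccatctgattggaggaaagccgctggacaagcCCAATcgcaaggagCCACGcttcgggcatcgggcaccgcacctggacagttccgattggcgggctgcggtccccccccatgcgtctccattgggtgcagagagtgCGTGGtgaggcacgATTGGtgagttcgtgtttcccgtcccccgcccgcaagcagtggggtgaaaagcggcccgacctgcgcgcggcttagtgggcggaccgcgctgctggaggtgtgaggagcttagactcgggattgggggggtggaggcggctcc
That of Creld2, plus strand of chr15:88819396-88819695, carries the ERSE on the other strand, so its ends read CGTGG and ATTGG.
Creld2: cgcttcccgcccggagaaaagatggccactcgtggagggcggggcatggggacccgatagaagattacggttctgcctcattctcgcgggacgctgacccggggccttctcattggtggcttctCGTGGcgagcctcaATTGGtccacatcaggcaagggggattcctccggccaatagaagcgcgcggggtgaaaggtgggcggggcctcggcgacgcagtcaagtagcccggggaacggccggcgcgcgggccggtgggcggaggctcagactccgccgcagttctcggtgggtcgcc
That of Herpud1, plus strand of chr8:94386179-94386478, carries the ERSE-II.
Herpud1: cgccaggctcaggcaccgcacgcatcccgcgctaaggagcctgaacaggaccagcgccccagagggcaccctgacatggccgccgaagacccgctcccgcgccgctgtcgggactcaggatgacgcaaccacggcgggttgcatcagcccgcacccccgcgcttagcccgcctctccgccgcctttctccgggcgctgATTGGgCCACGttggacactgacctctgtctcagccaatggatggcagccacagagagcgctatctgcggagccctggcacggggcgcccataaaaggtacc

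The CD22 knockout-labelled libraries were compared with wild type under IL-4 in a limma fit over all 10777 genes tested on the log2(FPKM + 1) scale, which understates changes of low genes. No gene of the 34 tested was called at an adjusted p below 0.05, where 0.408% of all genes tested were called (0.148% higher, 0.260% lower). An unadjusted p below 0.05 was reached by 4 of the 34 (11.8%), Herpud1, Ppp1r15a and Ddit3 on the lower side and Creld2 on the higher side in the CD22 knockout-labelled libraries, against 11.0% of all genes tested (4.57% higher, 6.39% lower). The groups did not overlap in 5 of the 34 (14.7%), against 17.1% of all genes tested. Creld2 and Derl1 lay above wild type without overlap (6.43% of all genes tested did so) and Herpud1, Ppp1r15a and Ddit3 below it (10.7%). By sign, 14 were higher and 20 lower (58.8% lower, against 57.9% of all genes tested), with a median log2 difference of -0.03 against -0.02 for all genes tested. Each of these shares lay near that of the whole table. With single libraries left out, the number of the 34 at an unadjusted limma p below 0.05 ran from 1 to 5. It was 1 without CD22 knockout-labelled library 1 or 2 or wild type library 3 (8.30%, 6.79% and 11.4% of all genes tested). It was 5 without CD22 knockout-labelled library 3 (12.5% of all genes tested). With all 6 libraries, log2 differences ran from -0.25 to 0.20, and standard errors from 0.0713 to 0.172. The 95% interval lay within 0.5 of 0 on the log2 scale for 33 of the 34 (97.1%), against 89.8% of all genes tested, the exception being Dnajb9. In the authors' deposited table, 4 of the 34 genes (11.8%) had a p-value below 0.05 (Creld2, Herpud1, Ppp1r15a and Hsp90b1), against 11.5% of the 10777 genes tested and 5.56% of all rows, and the lowest q-value was 0.405, for Creld2, where 0.693% of all rows had a q below 0.05.

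**Figure D3:**
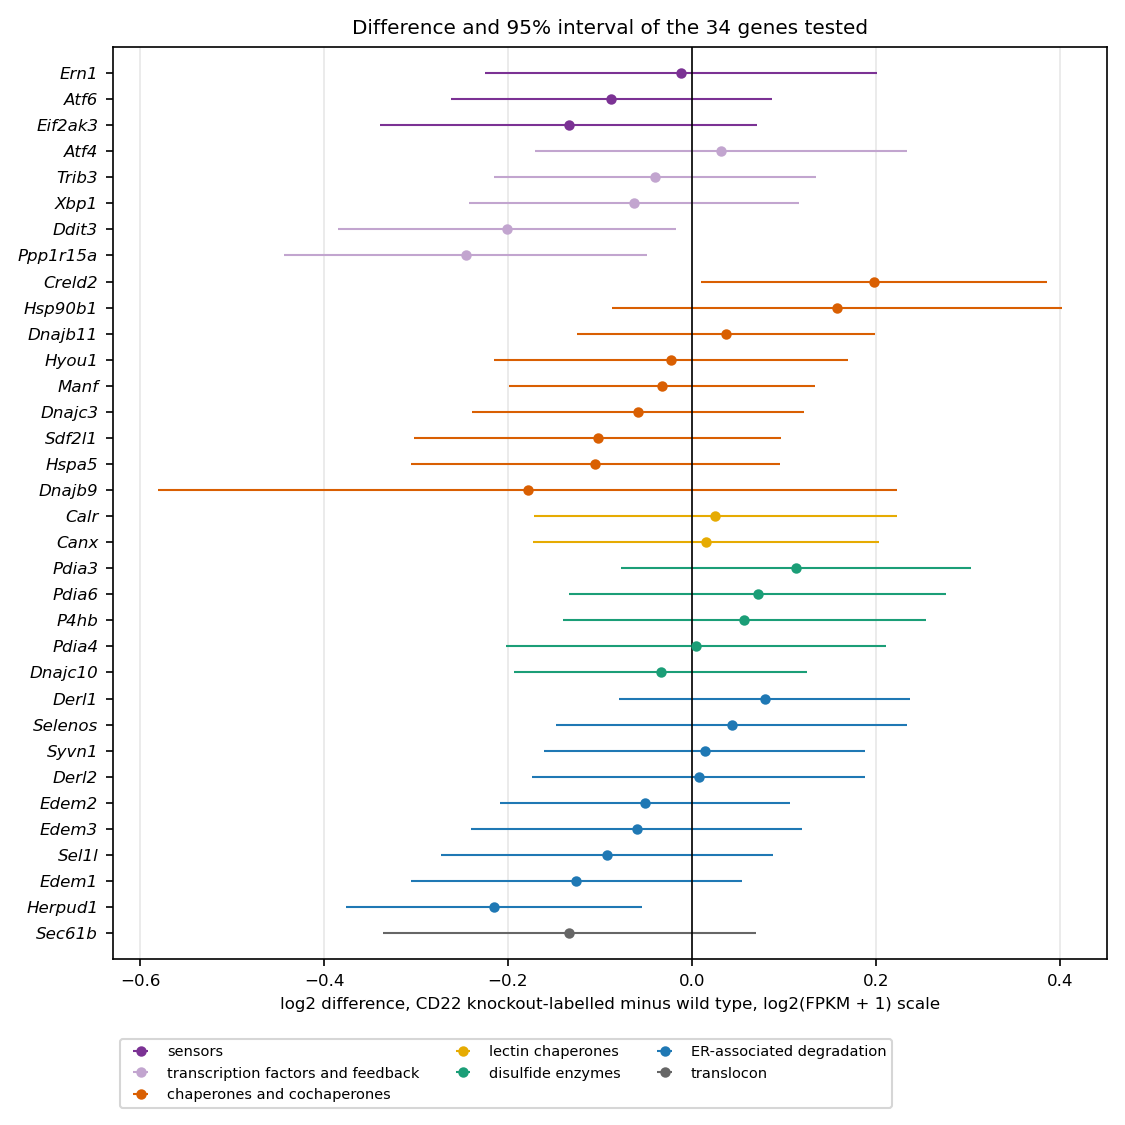
Log2 difference (CD22 knockout-labelled minus wild type) with its 95% interval for the 34 genes tested, grouped and coloured by role. Intervals of 30 genes include 0, and Herpud1, Ppp1r15a and Ddit3 lie below it and Creld2 above it before adjustment.

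The 3 sensors had lower means in the CD22 knockout-labelled libraries, with differences smaller than could be called. Eif2ak3 was at 6.28, 5.67 and 6.96 FPKM in the CD22 knockout-labelled libraries and at 7.53, 6.28 and 7.22 FPKM in wild type (log2 difference -0.13, SE 0.0929, limma, adjusted p = 0.645). The groups overlapped, with CD22 knockout-labelled library 3 above wild type library 2. The log2 difference of Eif2ak3 was -0.07 without CD22 knockout-labelled library 2, -0.09 without wild type library 1 and -0.20 without wild type library 2. Atf6 was at 11.0, 10.5 and 12.2 FPKM in the CD22 knockout-labelled libraries and at 12.2, 11.6 and 12.2 FPKM in wild type (log2 difference -0.09, 95% interval -0.26 to 0.09), and without CD22 knockout-labelled library 2 or 3 the difference of Atf6 was -0.04 or -0.15. Ern1 was at 9.21, 9.34 and 9.83 FPKM in the CD22 knockout-labelled libraries and 11.0, 8.25 and 9.58 FPKM in wild type, so the wild type libraries enclosed all 3 others (log2 difference -0.01, 95% interval -0.22 to 0.20). Its sign turned with the scaling, to 0.01 with median centring and 0.02 with quantile normalization.

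Downstream of the sensors, Ppp1r15a and Ddit3 of the PERK branch were below wild type in every CD22 knockout-labelled library, without passing the adjusted threshold. Ppp1r15a encodes GADD34, the phosphatase subunit that restores translation. It was at 12.6, 13.9 and 15.5 FPKM in the CD22 knockout-labelled libraries and at 15.6, 16.9 and 17.6 FPKM in wild type, a mean of 14.0 ± 1.45 FPKM in CD22 knockout-labelled and 16.7 ± 1.00 FPKM in wild type libraries (SD, n = 3 each). The groups did not overlap, but the highest CD22 knockout-labelled library and the lowest wild type library nearly touched (log2 difference -0.25, SE 0.0893, limma, adjusted p = 0.350). Ddit3 encodes CHOP, a transcription factor tied to cell death in prolonged ER stress. It was at 44.1, 43.8 and 43.1 FPKM in the CD22 knockout-labelled libraries and at 45.6, 54.4 and 51.4 FPKM in wild type, a mean of 43.7 ± 0.516 FPKM in CD22 knockout-labelled and 50.5 ± 4.46 FPKM in wild type libraries (SD, n = 3 each). The CD22 knockout-labelled libraries lay within a narrow band below a more spread wild type group (log2 difference -0.20, SE 0.0831, limma, adjusted p = 0.410). In GENCODE M21, Ddit3 overlaps Mars on the opposite strand and its other ID on the same strand, and Ppp1r15a overlaps Tulp2 on the opposite strand. No source used here says whether the counting was by strand, so reads of these pairs may not be told apart.

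The factors above and beside them did not share that order. Atf4, the factor that drives Ddit3 and Ppp1r15a, was at 122, 132 and 119.8 FPKM in the CD22 knockout-labelled libraries and at 110.0, 132 and 124 FPKM in wild type (log2 difference 0.03, 95% interval -0.17 to 0.23). Trib3, a pseudokinase gene that ATF4 and CHOP raise and that acts back on them, was at 24.0, 21.5 and 21.3 FPKM in the CD22 knockout-labelled libraries and 23.4, 21.8 and 23.7 FPKM in wild type (log2 difference -0.04, 95% interval -0.22 to 0.13). Both groups overlapped widely in each gene. Xbp1, the substrate of IRE1, was at 50.8, 49.1 and 55.8 FPKM in the CD22 knockout-labelled libraries and at 57.3, 52.4 and 53.1 FPKM in wild type (log2 difference -0.06, 95% interval -0.24 to 0.12). With single libraries left out the difference of Xbp1 ran from -0.12 (without CD22 knockout-labelled library 3) to -0.02 (without CD22 knockout-labelled library 2 or wild type library 1), and FPKM per gene does not separate its spliced from its unspliced form.

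**Figure D4:**
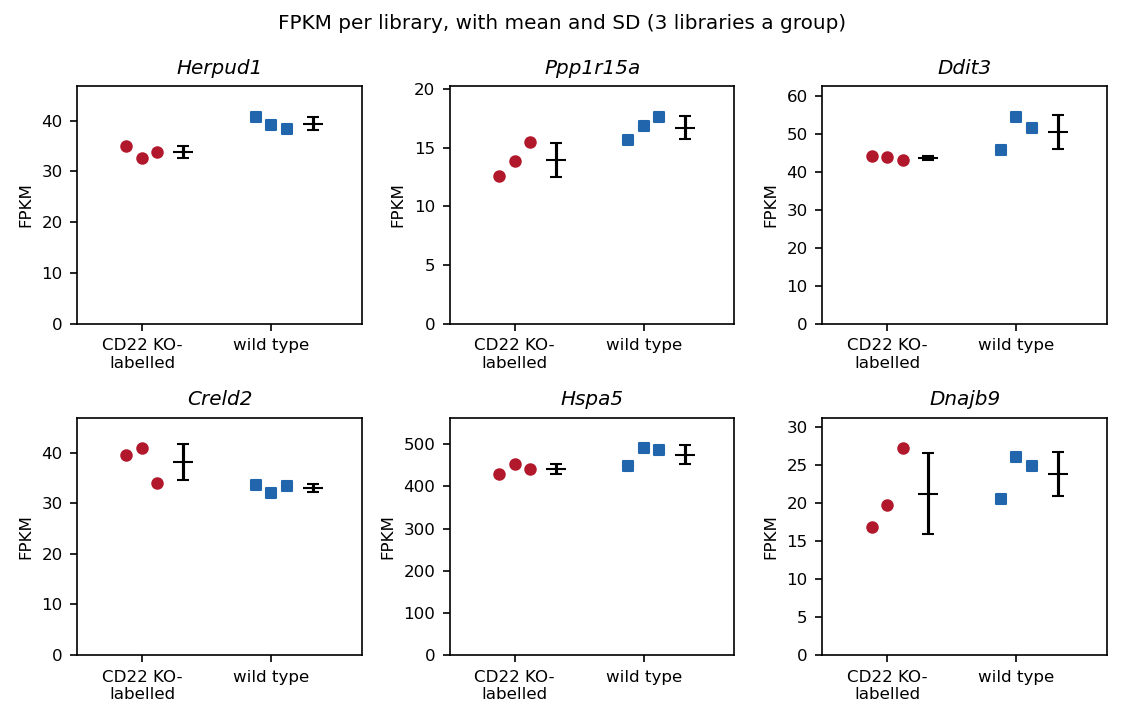
FPKM per library of Herpud1, Ppp1r15a, Ddit3, Creld2, Hspa5 and Dnajb9, CD22 knockout-labelled libraries as circles and wild type as squares, with mean and SD (n = 3 each) beside them. The groups do not overlap in Herpud1, Ppp1r15a, Ddit3 and Creld2, and Dnajb9 has the widest spread, 16.8 to 27.2 FPKM among the CD22 knockout-labelled libraries.

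Chaperones differed among themselves in direction. Hspa5 was at 429, 453 and 442 FPKM in the CD22 knockout-labelled libraries and at 449, 490.2 and 486 FPKM in wild type, and the groups overlapped through wild type library 1 (log2 difference -0.11, SE 0.0908, limma, adjusted p = 0.719). Hsp90b1 was at 400.4, 424 and 339 FPKM in the CD22 knockout-labelled libraries and at 349, 317 and 374 FPKM in wild type, with CD22 knockout-labelled library 3 inside the wild type range (log2 difference 0.16, SE 0.111, limma, adjusted p = 0.651). Without CD22 knockout-labelled library 3 the log2 difference of Hsp90b1 was 0.25, without CD22 knockout-labelled library 2 it was 0.09, without wild type library 2 it was 0.10, and it was 0.04 with wild type library 3 as the lone wild type sample. In GENCODE M21, Hsp90b1 also overlaps Gm15344 on its own strand. Creld2 encodes an ER-resident protein induced by ER stress. It was at 39.6, 40.9 and 34.1 FPKM in the CD22 knockout-labelled libraries and at 33.7, 32.0 and 33.3 FPKM in wild type, a mean of 38.2 ± 3.62 FPKM in CD22 knockout-labelled and 33.0 ± 0.874 FPKM in wild type libraries (SD, n = 3 each). The groups did not overlap, and the lowest CD22 knockout-labelled library stood just above the highest wild type library (log2 difference 0.20, SE 0.0851, limma, adjusted p = 0.427). Hspa5, Hsp90b1 and Creld2 share the element printed above and had differences of either sign.

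The cochaperones gave small or scattered differences. Dnajb9, an ER J protein that returns IRE1 to its BiP-bound state, had the widest spread of all 34, at 16.8, 19.7 and 27.2 FPKM in the CD22 knockout-labelled libraries and at 20.5, 26.0 and 24.8 FPKM in wild type (log2 difference -0.18, SE 0.172, 95% interval -0.58 to 0.22). Both the highest and the lowest of the 6 values were in CD22 knockout-labelled libraries. Sdf2l1, a BiP cofactor, was at 93.7, 85.8 and 93.3 FPKM in the CD22 knockout-labelled libraries and 98.1, 107 and 88.6 FPKM in wild type (log2 difference -0.10, 95% interval -0.30 to 0.10). Dnajb11, a J protein of BiP and carrier of the ERSE-II, was at 44.3, 45.2 and 44.5 FPKM in the CD22 knockout-labelled libraries and at 44.3, 41.3 and 45.0 FPKM in wild type (log2 difference 0.04, 95% interval -0.12 to 0.20). Dnajc3, which encodes the PERK inhibitor and cochaperone p58IPK, averaged 29.1 ± 1.93 FPKM in CD22 knockout-labelled and 30.4 ± 1.90 FPKM in wild type libraries (SD, n = 3 each). Hyou1, a nucleotide exchange factor of BiP, averaged 49.2 ± 3.46 FPKM in CD22 knockout-labelled and 50.02 ± 3.74 FPKM in wild type libraries (SD, n = 3 each). Manf, a secreted ER stress protein, averaged 28.7 ± 1.38 FPKM in CD22 knockout-labelled and 29.4 ± 1.16 FPKM in wild type libraries (SD, n = 3 each), and it overlaps Rbm15b on the same strand in GENCODE M21, so its value is uncertain. The 3 genes had log2 differences of -0.06, -0.02 and -0.03.

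Lectin chaperones and disulfide enzymes were at like levels in both groups or slightly higher in the CD22 knockout-labelled libraries. Calr was at 488, 466 and 456 FPKM in the CD22 knockout-labelled libraries and at 446, 467 and 470.3 FPKM in wild type (log2 difference 0.03, 95% interval -0.17 to 0.22). Canx was at 159, 157 and 148 FPKM in the CD22 knockout-labelled libraries and 155, 142 and 163 FPKM in wild type (log2 difference 0.02, 95% interval -0.17 to 0.20). The sign of Calr turned without CD22 knockout-labelled library 1, and that of Canx did so without that library or without wild type library 2. Pdia3, the isomerase that works with both lectins, was at 312, 309.9 and 289 FPKM in the CD22 knockout-labelled libraries and at 269, 283 and 290.5 FPKM in wild type, so the groups overlapped in their nearest values alone (log2 difference 0.11, SE 0.0860, limma, adjusted p = 0.678). Pdia6, another disulfide isomerase, was at 130.1, 128 and 109 FPKM in the CD22 knockout-labelled libraries and 113, 113 and 123 FPKM in wild type (log2 difference 0.07, 95% interval -0.13 to 0.28). The difference of Pdia6 was 0.03 without CD22 knockout-labelled library 1 or 2, 0.15 without library 3 of that group and 0.11 without wild type library 3. P4hb, the classical protein disulfide isomerase, was at 360.3, 356 and 349 FPKM in the CD22 knockout-labelled libraries and 318, 348 and 359 FPKM in wild type (log2 difference 0.06, 95% interval -0.14 to 0.25), and its difference was 0.01 without wild type library 1 and 0.09 without wild type library 3. Pdia4 averaged 242 ± 20.7 FPKM in CD22 knockout-labelled and 241 ± 11.7 FPKM in wild type libraries and Dnajc10, a disulfide reductase of ER degradation, 22.8 ± 0.612 FPKM in CD22 knockout-labelled and 23.4 ± 0.864 FPKM in wild type libraries (SD, n = 3 each).

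The folding genes shared part of their order across libraries, described by counts that were not made over all genes tested. Of 16 chaperones, lectin chaperones and disulfide enzymes, library 3 was the lowest of the CD22 knockout-labelled group in 10, and library 3 of wild type was the highest of its group in 11. Calr and Canx both had this order. Library 3 held the lowest value of the CD22 knockout-labelled group in 5 of the 5 disulfide enzymes, and library 3 of wild type held the highest value of its group in all 5. The median deviation of the disulfide enzymes from their mean over libraries was 0.05, 0.09 and -0.06 on the log2 scale in the CD22 knockout-labelled libraries and -0.08, -0.04 and 0.05 in wild type. Over all genes tested it was 0.00413, -0.0165 and -0.0214 in the CD22 knockout-labelled libraries and 0.0381, 0.0147 and -0.0188 in wild type. For the disulfide enzymes the 3 libraries above 0 were CD22 knockout-labelled 1 and 2 and wild type 3. They also had the largest share of mitochondrially encoded transcripts (17.2%, 20.4% and 16.5%), and CD22 knockout-labelled library 3, below 0, was at 15.6%. With mitochondrially encoded genes left out, the log2 differences of Pdia6 and P4hb were 0.08 and 0.07, against 0.07 and 0.06 with them. Whether that share bears on the order was not tested. ER degradation genes had the other order within the CD22 knockout-labelled group, with library 3 highest in 7 of 9 and library 1 lowest in 7 of 9.

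**Figure D5:**
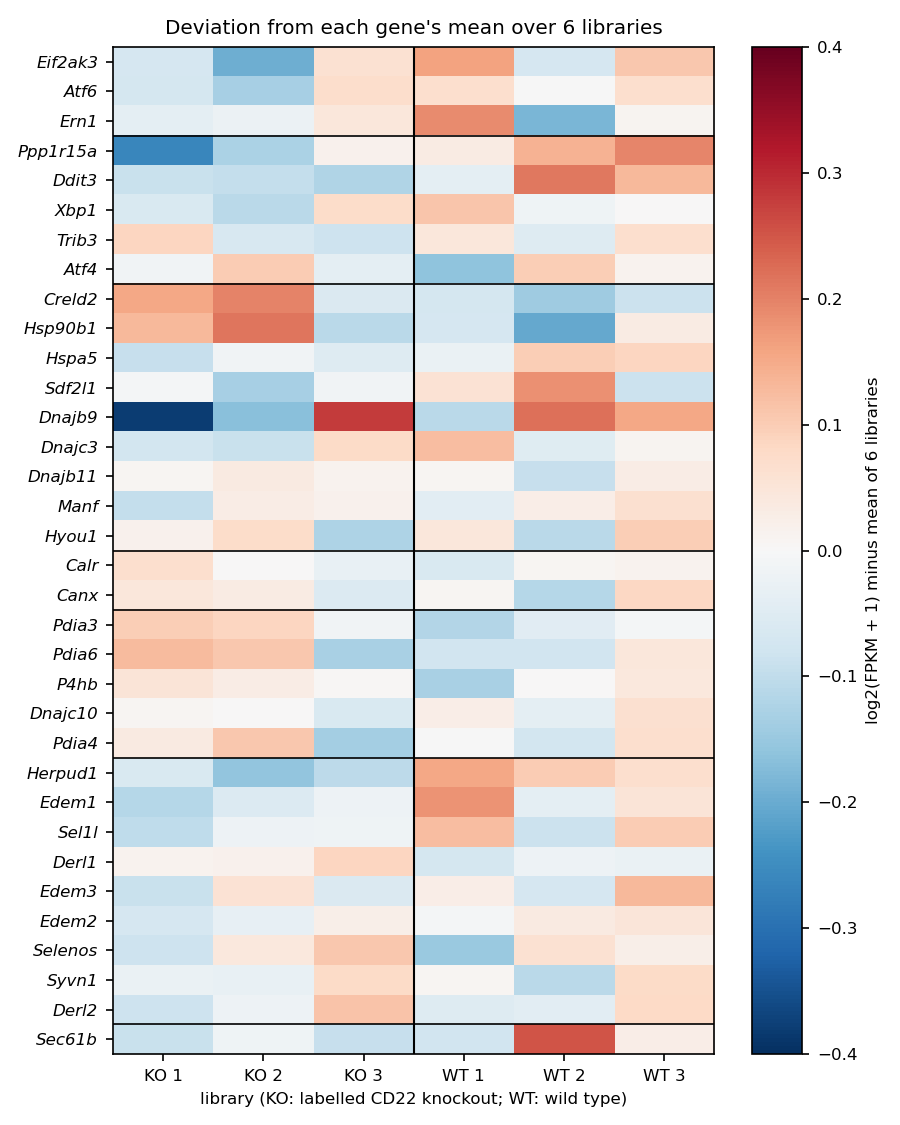
Deviation of log2(FPKM + 1) from each gene's mean over 6 libraries for the 34 genes tested, rows in role blocks (sensors, factors and feedback, chaperones, lectin chaperones, disulfide enzymes, ER degradation, translocon) and columns by library. In the disulfide enzyme block CD22 knockout-labelled library 3 is lowest of its group in each of 5 genes, and Dnajb9 runs from the lowest to the highest end within that group.

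Among the genes of ER-associated degradation, which extracts misfolded proteins for the proteasome, Herpud1 had the smallest p. Herpud1 encodes a scaffold of the HRD1 ubiquitin ligase. It was at 34.9, 32.6 and 33.8 FPKM in the CD22 knockout-labelled libraries and at 40.7, 39.2 and 38.3 FPKM in wild type, a mean of 33.8 ± 1.18 FPKM in CD22 knockout-labelled and 39.4 ± 1.23 FPKM in wild type libraries (SD, n = 3 each) and a fold of 0.858. The gap between the groups exceeded the spread within either, but the gene was not called (log2 difference -0.21, SE 0.0727, limma, unadjusted p = 0.0135, adjusted p = 0.315). Over the 15 alternative settings the log2 difference of Herpud1 ran from -0.24 to -0.17 and its adjusted p from 0.284 to 0.926. Herpud1 overlaps Gm15890 on the opposite strand in GENCODE M21. Syvn1, which encodes the HRD1 ligase itself and carries an ERSE, was at 19.3, 19.2 and 20.8 FPKM in the CD22 knockout-labelled libraries and at 19.8, 18.2 and 20.8 FPKM in wild type (log2 difference 0.01, 95% interval -0.16 to 0.19). Sel1l, the cofactor that stabilises HRD1, was at 35.4, 37.5 and 37.6 FPKM in the CD22 knockout-labelled libraries and 41.5, 35.8 and 40.9 FPKM in wild type (log2 difference -0.09, 95% interval -0.27 to 0.09). The difference of Sel1l was -0.05 without wild type library 1 and -0.16 without wild type library 2.

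The EDEM genes encode lectins that trim mannose from misfolded glycoproteins. Edem1 was at 42.5, 44.3 and 45.5 FPKM in the CD22 knockout-labelled libraries and at 52.3, 44.8 and 47.8 FPKM in wild type, where library 1 stood highest (log2 difference -0.13, 95% interval -0.31 to 0.05) and without which the difference was -0.07. Edem2 averaged 31.2 ± 1.03 FPKM in CD22 knockout-labelled and 32.3 ± 0.690 FPKM in wild type libraries and Edem3 12.2 ± 0.707 FPKM in CD22 knockout-labelled and 12.8 ± 0.951 FPKM in wild type libraries (SD, n = 3 each). Of the derlins, Derl1 was at 44.2, 44.3 and 46.6 FPKM in the CD22 knockout-labelled libraries and at 41.6, 43.1 and 43.0 FPKM in wild type. Its groups did not overlap at a log2 difference of 0.08 (95% interval -0.08 to 0.24). Derl2 averaged 7.44 ± 0.596 FPKM in CD22 knockout-labelled and 7.39 ± 0.428 FPKM in wild type libraries, and Selenos, a selenoprotein that links the derlins to the ATPase VCP, 34.1 ± 2.33 FPKM in CD22 knockout-labelled and 33.1 ± 2.58 FPKM in wild type libraries (SD, n = 3 each). Sec61b, the beta subunit of the channel through which proteins enter the ER, was at 20.4, 21.6 and 20.4 FPKM in the CD22 knockout-labelled libraries and at 20.6, 26.1 and 22.2 FPKM in wild type (log2 difference -0.13, 95% interval -0.34 to 0.07). Wild type library 2 was the highest of the 6 for Sec61b, whose log2 difference was -0.04 without that library and -0.20 without wild type library 1.

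Other genes of the ER and of protein folding also gave 0 calls. On 8 lists with 198 genes, 187 were tested, 0 were called by limma in either direction (0.408% of all genes tested), and 11 (5.88%) had an unadjusted p below 0.05, 4 on the higher and 7 on the lower side, against 11.0% of all genes tested. The groups did not overlap in 28 of them (15.0%, against 17.1% of all genes tested), and 120 (64.2%) were lower, against 57.9% of all genes tested. Among the lists, the translocon and signal peptidase genes had 0 of 28 at an unadjusted p below 0.05 and a median log2 difference of -0.03. Genes of the integrated stress response, which PERK and ATF4 feed, had 2 of 30 at that p, both on the lower side, with 21 of 30 lower and a median of -0.07. Their smallest p belonged to Wars, a tRNA synthetase gene, at 20.5 ± 1.54 FPKM in CD22 knockout-labelled and 23.8 ± 1.47 FPKM in wild type libraries (SD, n = 3 each). Degradation genes outside the 35 had 19 of 25 lower, with Erlin1 at 9.17 ± 0.928 FPKM in CD22 knockout-labelled and 10.6 ± 0.0579 FPKM in wild type libraries (SD, n = 3 each). The groups did not overlap in 7 of these 25 (28.0%), in either direction, the largest share of the 8 lists. The smallest share was 1 of 28 (3.57%), for translocon and signal peptidase genes, and that of all genes tested was 17.1%. Genes of folding and disulfide formation had 12 of 22 higher, with P4ha1, a prolyl hydroxylase subunit, at 28.9 ± 1.60 FPKM in CD22 knockout-labelled and 24.6 ± 1.55 FPKM in wild type libraries and Ero1l, the oxidase that recharges P4hb, at 22.4 ± 1.95 FPKM in CD22 knockout-labelled and 19.6 ± 1.10 FPKM in wild type libraries (SD, n = 3 each). Glycan processing genes had 10 of 17 higher, and 2 of 17 had an unadjusted p below 0.05, in opposite directions. Of these, Mogs, the glucosidase that begins trimming, was at 18.6 ± 1.44 FPKM in CD22 knockout-labelled and 15.5 ± 0.808 FPKM in wild type libraries (SD, n = 3 each, log2 difference 0.25). Krtcap2, a subunit of the oligosaccharyltransferase, was at 15.1 ± 1.52 FPKM in CD22 knockout-labelled and 18.4 ± 2.27 FPKM in wild type libraries (SD, n = 3 each, log2 difference -0.27). Transport genes had 4 of 22 higher, and the groups did not overlap in 4 of 22 (18.2%). Their smallest p belonged to Tmed9, at 47.6 ± 0.175 FPKM in CD22 knockout-labelled and 42.1 ± 2.23 FPKM in wild type libraries (SD, n = 3 each). Next was Kdelr1, a receptor that returns ER chaperones from the Golgi. It was at 48.9, 50.1 and 49.7 FPKM in the CD22 knockout-labelled libraries and 44.7, 43.6 and 44.1 FPKM in wild type. The groups did not overlap for Kdelr1 (log2 difference 0.16, SE 0.0702, limma, adjusted p = 0.424). They overlapped for Kdelr2 and Kdelr3, with log2 differences of 0.11 and -0.03. UPR transducers and cofactors had 0 of 20 and cytosolic heat shock genes 3 of 23 at an unadjusted p below 0.05, those of the heat shock genes all on the lower side. They included Hspa1a, the inducible cytosolic HSP70, at 2.67, 1.67 and 2.72 FPKM in the CD22 knockout-labelled libraries and 5.59, 3.96 and 3.02 FPKM in wild type, and its near-identical neighbour Hspa1b can share its reads.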

How the data were processed

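The authors deposited FPKM per gene for 6 libraries, per the file headers, and no read counts are used here. Beside them the authors deposited a fold (the ratio of mean CD22 knockout to mean wild type FPKM in all 21108 rows with both means above 0, within 0.001), its log2, and a p-value and q-value from the authors' own comparison, by a method that no source used here names. Poly(A) libraries were strand-specific and paired-end, per the labels' protocols. Per the submitters' processing notes, HISAT2, StringTie, cutadapt, FastQC, edgeR and DESeq2 are named, with no role given. The genome build was not given in these sources, so gene overlaps come from GENCODE M21 by gene ID, which held all 36 IDs.

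From the deposited FPKM, log2(FPKM + 1) of the 10777 genes with at least 1 FPKM in at least 3 libraries was fitted with limma 3.58.1 (R 4.3.3; trend, robust, no covariates, 2-sided, Benjamini-Hochberg over all genes tested, called below 0.05). The script was checked on simulated data. Intervals are 95% limma intervals per gene, not adjusted. The members and lists were chosen with earlier results of these data known. Values per library are given for the 3 genes of each role with the smallest p and for further members, and for up to 2 genes of each list. Each library has its own batch code, so batch cannot enter a fit. Same-numbered libraries were checked for pairing.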

Additional observations from a re-analysis of the deposited data

How the results depend on the processing

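Over 15 alternative settings, limma called 0 of the 35 genes and 0 genes of the other ER lists in each. The count over all genes was 44, against 3 when low genes were kept, 11 without wild type libraries 1 and 2, and 28 to 92 with single libraries left out (28 without CD22 knockout-labelled library 2, 92 without library 3 of that group). The median log2 difference of the members ran from -0.0745 (without wild type libraries 1 and 2, where 28 of 34 were lower) to -0.00273 (quantile normalization, 17 of 34 lower), against -0.03. Without those 2 libraries the log2 differences of Calr, Canx, Pdia6 and P4hb were -0.00257, -0.0740, -0.00945 and -0.0152, so their sign turned, and that fit assumes that the lone wild type library varies like the others. Ern1 turned to 0.00679 with median centring and 0.0193 with quantile normalization, and ran from -0.106 to 0.0798 with single libraries left out, Calr from -0.00186 to 0.0470 and Canx from -0.0376 to 0.0605. None of these was called in any setting. The cause of these changes was not tested. With the replicate number as a block, 63 genes were called and 0 of the 35. The deviations of same-numbered libraries had correlations of 0.0559, -0.0336 and 0.0703 across genes, and not every library correlated best with its own number. Correlations this weak cannot settle whether the libraries were paired. FPKM gives no depth, so no counting error could be set beside the values.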
